A study of Homo sapiens with 12 samples.

Results

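The genes described here are the nuclear genes of the mitochondrial respiratory chain and ATP synthase, measured by bulk RNA sequencing in HK-2 cells, an immortalized line derived from human kidney proximal tubule. They were chosen by gene name alone, as the rows named NDUFA, NDUFB, NDUFC, NDUFS or NDUFV with a number, SDHA to SDHD, the UQCR subunits, CYC1, the widely expressed COX subunits and all names that begin with ATP5. NDUFA13 and pseudogene names that end in P with a number were left out. This gave 79 of 35238 rows in the table. By textbook assignment 35 were complex I subunits, 4 complex II, 9 complex III, 11 complex IV and 15 ATP synthase (complex V). NDUFA4 keeps its complex I name but was placed in complex IV, where the protein is found. The other 5 carry an ATP5 name without being a standard subunit gene of these complexes.

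The cells were transfected with 10 nM of a scrambled siRNA duplex (SCR) or of a duplex against POLR2A (siB), the gene of the largest RNA polymerase II subunit. At the same time they received 25 µM aristolochic acid I (AAI), a plant nephrotoxin that forms DNA adducts, or the same volume of its solvent DMSO, and were kept for 24 hours. The 4 groups were therefore SCR DMSO, SCR AAI, siB DMSO and siB AAI, with 3 libraries in each, and no group was left untransfected. All 12 libraries came from 1 cell line, the labels do not say whether the replicates were separate cultures, and p-values then measure only the spread between these libraries, which may be technical.

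Complex I takes electrons from NADH and complex II, which is succinate dehydrogenase, takes them from succinate. Both hand them to ubiquinone, complex III passes them on to cytochrome c, and complex IV passes them to oxygen, while complexes I, III and IV pump protons that drive ATP synthase. Proximal tubule cells depend on this pathway for the ATP that powers solute reabsorption, and every complex except complex II also holds subunits encoded in the mitochondrial genome.

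Values are CPM, the reads counted to a gene scaled so that every library sums to 1000000, which give each transcript as a part of its library and not per cell. A change is the difference of group means of log2(CPM + 1), so 1 is close to a doubling, and it slightly understates the change of low genes. A gene was called when limma's moderated test gave a Benjamini-Hochberg adjusted p under 0.05 over all genes tested, and a stricter count also asked for at least a 2-fold change. Genes entered a fit when at least 3 of its libraries reached a CPM of 1. In bulk RNA, fewer cells of a type and less RNA per cell cannot be told apart.

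The libraries held between 15844015 and 42805294 counted reads. POLR2A, the targeted gene, had 258, 288 and 306 CPM in SCR DMSO, 673, 719 and 729 in SCR AAI, 138, 143 and 139 in siB DMSO, and 266, 220 and 210 in siB AAI. It was lower in every siB library than in every SCR library of the same treatment, and it was higher with AAI under both siRNAs. Of the proximal tubule markers, GGT1 averaged 134 CPM over the 12 libraries and SLC5A2 10.2, while the other 5 of 7, LRP2, CUBN, SLC34A1, AQP1 and ANPEP, averaged 1.19 CPM or less. The epithelial keratins KRT8 and KRT18 averaged 657 and 355 CPM. The other epithelial markers are given as group means in SCR DMSO, SCR AAI, siB DMSO and siB AAI. EPCAM had 161, 140, 171 and 163 CPM, and CDH1 was low, with 13.3, 4.29, 12.3 and 7.06 CPM. The 3 fibroblast markers COL1A1, PDGFRB and COL3A1 averaged 25.9, 1.40 and 0.047 CPM, the endothelial markers PECAM1 and CDH5 2.10 and 0.0954, and the immune marker PTPRC 1.27. With AAI in siB cells COL1A1 was called lower (−1.37), as were 3 of the 4 epithelial markers, while PTPRC (1.33) and PECAM1 (1.39) were called higher, also in siB AAI against SCR AAI (0.82 and 1.23). Among the proximal tubule markers, SLC5A2 was called higher with AAI in SCR cells (1.75) and in siB cells (1.55). In siB cells ANPEP was also called higher (1.85), from a low level, while GGT1 was called lower (−0.53). In siB AAI against SCR AAI, ANPEP was called higher (1.49) and SLC34A1 lower (−0.77). The part of these marker changes in the results was not tested. SCR DMSO replicate 2 stood apart from its group on the second principal component of all genes (−62.2 against 57.8 and 20.0), so some values are also given without it. Many other values that use SCR DMSO are given only with it and can depend on it.

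Promoter sequence is shown for 3 members that were called in siB cells, because they stand for both directions of change, and because the motifs marked in them were found at a higher share of the members' promoters than of all promoters. SDHB, the iron-sulfur subunit of complex II, was higher with AAI. NDUFS4 and NDUFB10, accessory subunits of complex I, were lower. Each line gives the 150 bases that lie from 200 to 51 bases before the RefSeq transcript start (GRCh38.p14), written 5′ to 3′ on the gene's own strand. Capitals mark the letters GCATGCGC, the core of the palindromic NRF1 motif, or CCGGAAG, the motif of ETS factors such as GABPA, on either strand.
SDHB, chr1:17054083-17054232, minus strand: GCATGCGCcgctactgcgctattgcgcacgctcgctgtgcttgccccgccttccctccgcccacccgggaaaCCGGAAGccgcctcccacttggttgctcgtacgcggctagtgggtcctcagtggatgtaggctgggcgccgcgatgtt
NDUFS4, chr5:53560439-53560588, plus strand: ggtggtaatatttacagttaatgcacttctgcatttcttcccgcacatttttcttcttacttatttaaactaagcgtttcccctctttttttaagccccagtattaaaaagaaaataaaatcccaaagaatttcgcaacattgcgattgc
NDUFB10, chr16:1959338-1959487, plus strand: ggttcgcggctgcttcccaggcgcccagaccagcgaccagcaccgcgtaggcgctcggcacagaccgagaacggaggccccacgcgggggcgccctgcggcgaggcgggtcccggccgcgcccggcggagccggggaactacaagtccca

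The SDHB window held both motifs once, and the NDUFS4 and NDUFB10 windows held neither. RefSeq promoters of 250 bases before to 50 after the start were matched for 61 members. GCATGCGC was found on either strand in 13 of them (21.3%) against 3.27% of the 27305 promoters in the table, and CCGGAAG in 18 (29.5%) against 10.7%. AAGATGGCG, the core of the YY1 motif, was found in 8 (13.1%) against 1.85%, and among the 3 genes shown above it was in the full promoters of SDHB and NDUFS4, outside the printed bases. TATAAA was in 6 (9.84%) against 11.95% of all promoters. Among the other members called in siB cells, SDHD, called lower, held both GCATGCGC and CCGGAAG, and NDUFA8, called higher, held GCATGCGC. NDUFV3 and NDUFB3, called higher, and NDUFA11 and ATP5SL, called lower, held neither. A link between these motifs and the direction of change was not tested. The searched letters do not contain one another, and a match is a description of the sequence and not evidence of a bound site.

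The members were well expressed. All but ATP5L2 and ATP5J2LP passed the filter on low values in every comparison, which left 77 members and all 74 subunit genes of the 5 complexes. Per kilobase of reference transcript, the highest levels were those of ATP5B, the catalytic beta subunit of ATP synthase (411 CPM per kb), COX4I1, a regulatory subunit of complex IV (391.8), and COX6A1 (325). The lowest tested subunit genes on this scale were NDUFV3 (3.31 CPM per kb), NDUFA5 (5.86) and NDUFS1 (9.78), whose reference transcripts are long. ATP5L2, a paralog of the subunit g gene, averaged 0.170 CPM, and ATP5J2LP, a pseudogene of ATP5J2, 0.0572 CPM.

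The genes are compact. Their median span in GENCODE 44 was 12.6 kb, against 32.6 kb over all genes tested that have a span. Of the 77, 59 spanned under 30 kb, 15 spanned 30 to 100 kb, and NDUFA10, NDUFS4 and NDUFA12 spanned more than 100 kb. The reference transcripts had a median length of 894 bases against 3314 over all genes. Reads of some members can be shared with copies, since 156 rows of the table are pseudogenes named after a member and 8 of these averaged at least 1 CPM. The largest was SDHAP1 at 45.5 CPM, so the level of SDHA is uncertain.

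The summed levels of the complexes were close in the 4 groups. The complex I genes summed to 2157 ± 415 CPM in SCR DMSO, 2151 ± 215 in SCR AAI, 2193 ± 107 in siB DMSO and 2129 ± 55.1 in siB AAI (SD, n = 3). The 4 complex II genes summed to 393 ± 33.7, 430 ± 78.01, 434 ± 19.4 and 446 ± 35.0 CPM in the same order. For complex III the sums were 941 ± 200, 917 ± 91.0, 950 ± 73.1 and 923 ± 39.2 CPM. Within each of these complexes the means of the 4 groups were closer than the libraries of SCR DMSO or SCR AAI were to each other.

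The nuclear complex IV genes summed to 1291 ± 243, 1174 ± 173, 1223 ± 95.3 and 1297 ± 96.5 CPM, and the ATP synthase genes to 2143 ± 356, 2156 ± 173, 2197 ± 130 and 2337 ± 71.2 CPM. The siB AAI libraries had the highest ATP synthase sums of the siB cells, with 2295, 2298 and 2420 CPM against 2047, 2263 and 2282 CPM in siB DMSO. These ranges did not overlap, but both lay inside the SCR DMSO range of 1855 to 2541 CPM. All subunit genes together summed to 6925 ± 1222 CPM in SCR DMSO, 6828 ± 674 in SCR AAI, 6997 ± 423 in siB DMSO and 7133 ± 142 in siB AAI. SCR DMSO replicate 2 alone had 8293 CPM, against 5941 and 6540 CPM in the other SCR DMSO libraries.

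**Figure D1:**
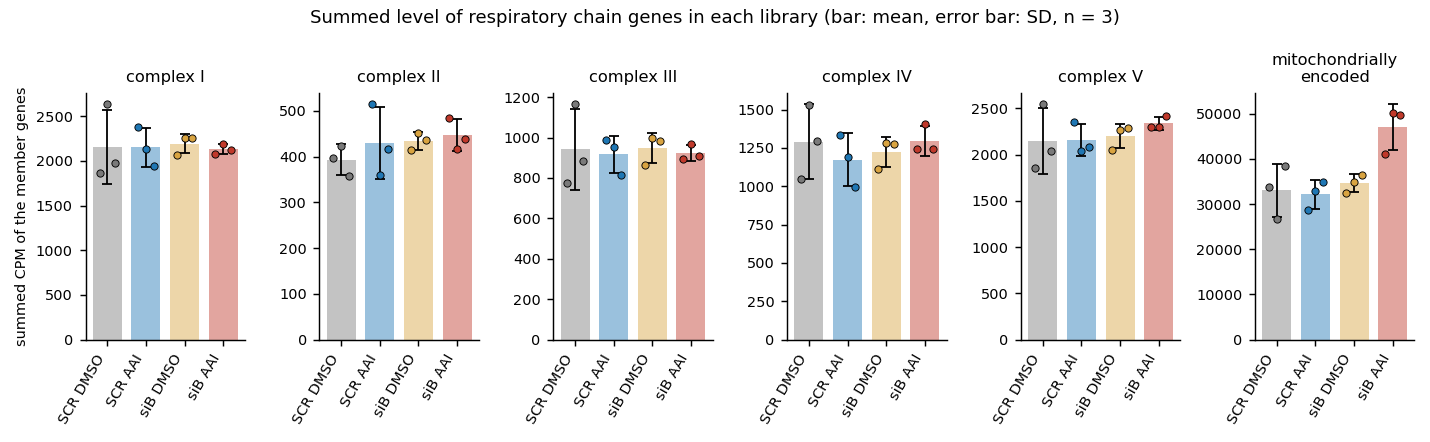
Summed CPM of the member genes of each complex and of the 13 mitochondrially encoded protein genes, with 1 point per library, bars at the group mean and error bars for the SD of 3 libraries. Group means of the nuclear complexes lie close together, while the mitochondrially encoded sum is 41167 to 50076 CPM in siB AAI against 26728 to 38420 CPM in all other libraries.

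The mitochondrially encoded partners of these subunits had their highest sums in siB AAI. The 13 protein genes of the mitochondrial genome summed to 33010 ± 5895 CPM in SCR DMSO, 32169 ± 3255 in SCR AAI, 34605 ± 1999 in siB DMSO and 46997 ± 5052 in siB AAI. The ratio of this sum to the nuclear sum was 5.70, 3.22 and 5.87 in the SCR DMSO libraries and 3.78, 4.94 and 5.60 in SCR AAI. It was 4.99, 4.81 and 5.04 in siB DMSO and 5.89, 6.88 and 6.98 in siB AAI. The siB AAI ratios were above all others, although the lowest of them exceeded the highest SCR DMSO ratio by little. By limma, 5 of the 13 genes (38.5%) were called higher with AAI in siB cells (median change 0.28), where 30.4% of all genes tested were called higher and 52.2% in either direction. In siB AAI against SCR AAI, 2 of 13 (15.4%) were called higher (median 0.54), against 9.28% of all genes called. With the replicate numbers as a block, all 13 passed in that comparison, against 28.9% of all genes. Under median-ratio scaling the calls were 2 and 0, with medians of 0.16 and 0.55, against 53.9% and 10.8% of all genes.

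The effect of AAI in cells with the scrambled siRNA was given by SCR AAI against SCR DMSO. None of the 74 subunit genes passed the test, and 3 had an unadjusted p under 0.05. Of the 77 members tested, 1 was called, the readthrough gene ATP5J2-PTCD1, which was also the only one past 2-fold. Over all 14228 genes tested 12.3% were called, and 10.5% were called with at least a 2-fold change. The members' median change was −0.03 (range −0.73 to 1.08) against 0.18 over all genes. The 95% interval of the change lay within 2-fold either way for 62 of the 77 members (80.5%), against 37.8% of all genes tested. It lay within 1.5-fold for only 7 (9.09%), against 3.32% of all genes. The groups did not overlap for 10 members (13.0%), against 33.8% of all genes. Under median-ratio scaling, which brought the median of all genes to −0.01, the members' median was −0.23 and NDUFS4 was the 1 member called, lower, against 13.3% of all genes.

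NDUFS4, an accessory subunit of complex I whose loss causes complex I deficiency in people, had the lowest change. Its level was 17.0, 16.7 and 16.3 CPM in SCR DMSO and 9.55, 10.1 and 9.36 CPM in SCR AAI. All SCR AAI libraries were below all SCR DMSO libraries, but the change of −0.73 ± 0.23 (SE) missed the threshold (limma adjusted p = 0.0793). Without SCR DMSO replicate 2 the change was the same size, −0.73, and passed narrowly (limma adjusted p = 0.0499). With the spread estimated over all 4 groups the limma adjusted p was 0.00727.

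Among the other complex I genes, NDUFA8 was highest, with 34.2, 48.0 and 30.8 CPM in SCR DMSO against 66.0, 49.6 and 50.03 CPM in SCR AAI. The groups did not overlap, and the change was 0.55 ± 0.25 (limma adjusted p = 0.211). Without SCR DMSO replicate 2 it was 0.74 (limma adjusted p = 0.0395). The 7 core subunits, which carry the cofactors or line the quinone site, had a median change of 0.10 and the 28 accessory subunits 0.01.

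In complex II, SDHB was 51.7, 82.7 and 60.9 CPM in SCR DMSO and 86.9, 77.3 and 80.0 CPM in SCR AAI, a change of 0.34 (95% interval −0.20 to 0.88). SDHC, a membrane anchor, changed by −0.22 (−0.74 to 0.31). In complex III, CYC1, the gene of cytochrome c1, was the highest with a change of 0.16, and the accessory subunit UQCR11 the lowest at −0.25. The sign of the UQCR11 value depended on SCR DMSO replicate 2, without which it was 0.04. In complex IV, COX5A changed by 0.30 and COX7C by −0.49 (95% interval −0.996 to 0.02). No complex II, III or IV gene passed, and the 95% interval of each lay within 2-fold.

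In ATP synthase, ATP5F1, subunit b of the peripheral stalk, had 86.4, 69.8 and 82.6 CPM in SCR DMSO and 113, 112 and 134 CPM in SCR AAI. All SCR AAI libraries were higher, by 0.58 ± 0.20, and the value missed the threshold (limma adjusted p = 0.110). ATP5E, the epsilon subunit of the central stalk, was the lowest, at −0.46 (95% interval −1.13 to 0.21). Its SCR DMSO libraries were far apart, at 117, 231 and 143 CPM, and without replicate 2 the change was −0.18. ATP5F1, NDUFS4, NDUFV2, NDUFS5, NDUFA8, NDUFB1 and COX7C passed when all 4 groups shared the estimate of the spread, as did ATP5J2-PTCD1, which made 4 higher and 4 lower, against 26.7% of all genes in that fit.

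ATP5J2-PTCD1 is annotated as a transcript that runs from ATP5J2, the gene of ATP synthase subunit f, into PTCD1, which encodes a mitochondrial RNA-binding protein (chr7:99419749-99466197, minus strand, hg38). It had 8.69, 13.9 and 11.7 CPM in SCR DMSO and 25.6, 23.6 and 25.3 CPM in SCR AAI. All SCR AAI libraries were higher, by 1.08 ± 0.26 (limma adjusted p = 0.0325), and this call held in 10 of 16 alternative analyses (limma adjusted p from 0.00321 to 0.145). It was lost under median-ratio scaling and when any library other than SCR DMSO replicate 2 was left out. ATP5J2 itself had 96.3, 160 and 107 CPM against 106, 107 and 93.8 CPM, overlapping groups with a change of −0.21 (95% interval −0.77 to 0.35). That change was 0.01 without SCR DMSO replicate 2. PTCD1 had 14.6, 24.2 and 17.0 CPM against 53.6, 51.8 and 53.5 CPM, a change of 1.49 (limma adjusted p = 0.00742). The readthrough shares exons with both, so gene-level counting may have split the reads between them and the 3 rows are not independent.

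The same comparison in siB cells, siB AAI against siB DMSO, gave 13 calls among the 77 members. The 6 higher members were ATP5J2-PTCD1, NDUFV3, SDHB, UQCRB, NDUFB3 and NDUFA8, and the 7 lower were NDUFS4, ATP5SL, NDUFB10, NDUFA11, ATP5D, CYC1 and SDHD. None reached a 2-fold change. Under median-ratio scaling, which brought the median of all genes to −0.01, 2 members were higher and 12 lower, against 53.9% of all genes called, and without siB DMSO replicate 3 the counts were 2 and 3, against 40.4%. Genes of both directions were called in complexes I, II and III, but under median-ratio scaling the only called genes of complexes II and III were lower, and complex I had 1 higher and 8 lower. Over all 14928 genes tested 52.2% were called, 30.4% higher and 21.8% lower, and 19.7% were called with at least a 2-fold change. The members' median change was 0.03 against 0.10 over all genes, with a range of −0.68 to 0.68. The groups did not overlap for 26 members (33.8%), against 60.8% of all genes. The 95% interval lay within 2-fold for 74 members (96.1%) and within 1.5-fold for 59 (76.6%), against 60.7% and 27.2% of all genes.

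**Figure D2:**
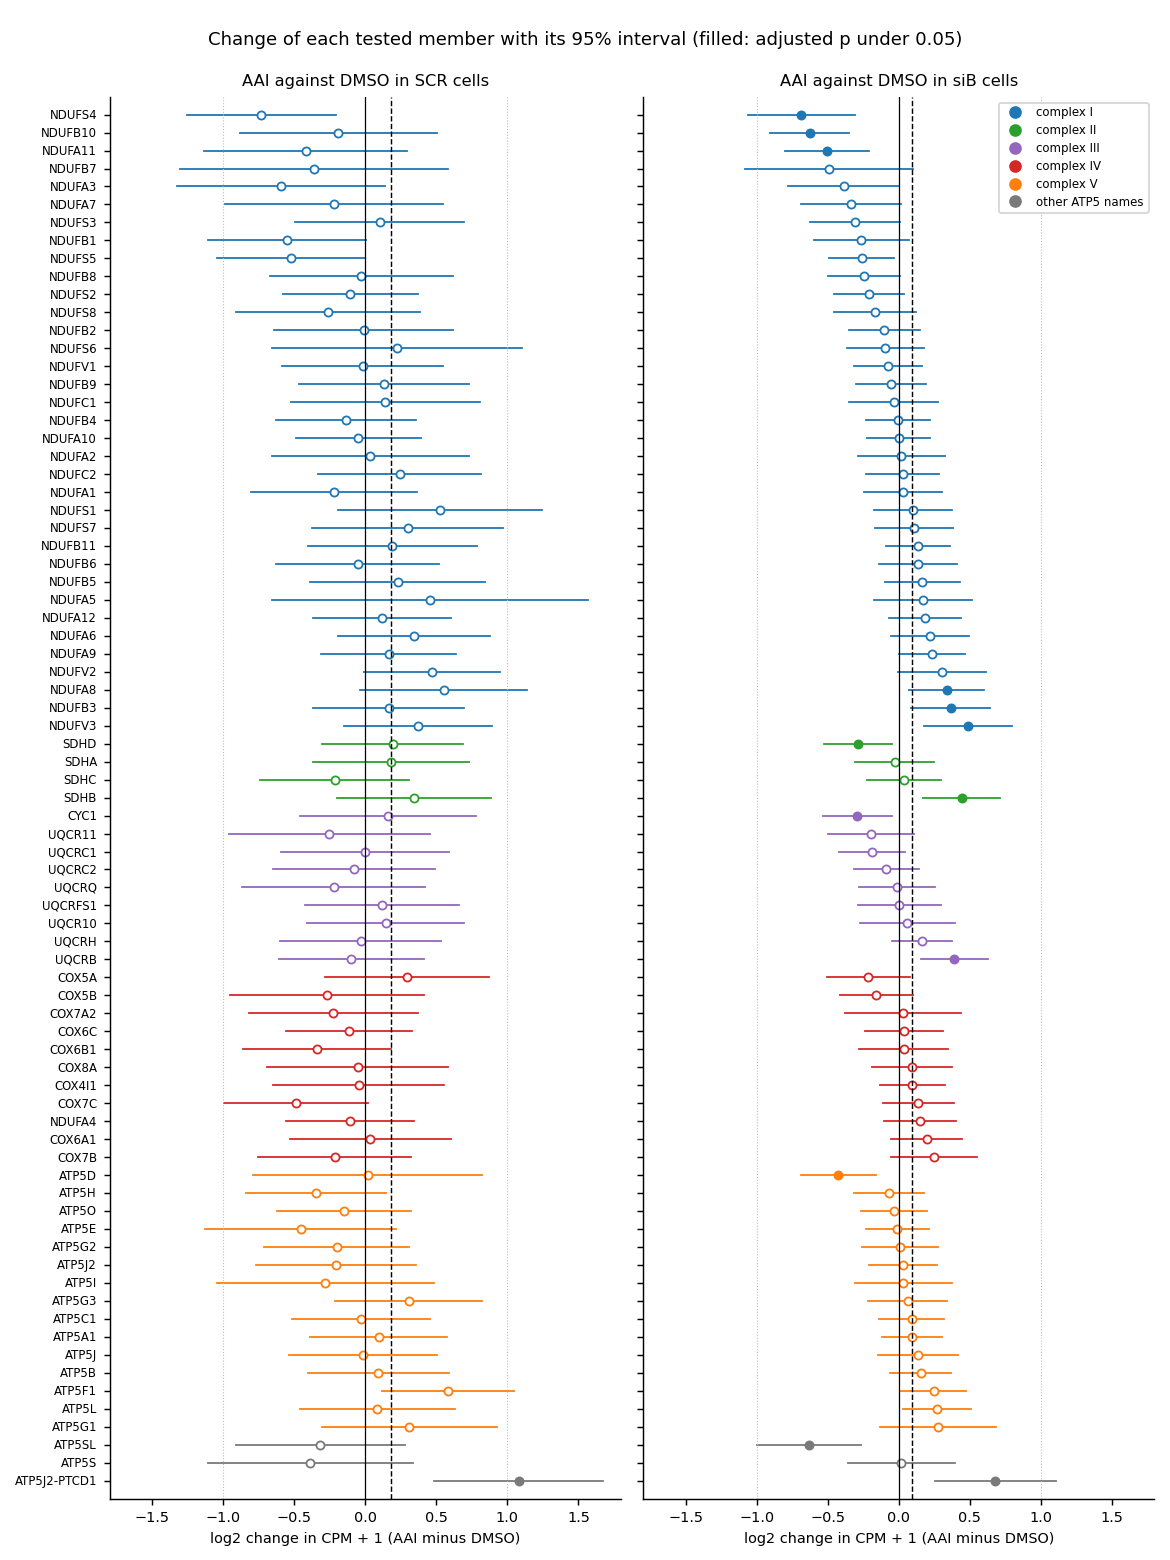
Change with AAI of each of the 77 tested members in SCR cells (left) and siB cells (right), in log2 units with 95% intervals from limma, coloured by complex. Filled points passed an adjusted p of 0.05, dotted lines mark 2-fold changes and the dashed line marks the median of all genes tested, 0.18 in SCR and 0.10 in siB cells. Points lie on both sides of 0 in every complex, and 13 are filled on the right against 1 on the left.

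In complex I, 6 of the 28 accessory subunit genes were called, 3 in each direction, and none of the 7 core subunit genes, against 52.2% of all genes. Of the core genes, NDUFS3 was called lower under median-ratio scaling (−0.42) and NDUFV2 higher without siB AAI replicate 1 (0.40). NDUFS4 had 12.8, 16.1 and 16.2 CPM in siB DMSO and 7.89, 10.2 and 8.79 CPM in siB AAI. Every siB AAI library was lower, with a change of −0.68 ± 0.17 (limma adjusted p = 0.00721), close to that in SCR cells, and the call held in all 16 alternative analyses. NDUFB10, a subunit of the membrane arm, had 45.7, 49.1 and 50.96 CPM in siB DMSO and 33.6, 32.0 and 27.9 CPM in siB AAI. Its groups did not overlap, and the change of −0.63 ± 0.12 was the one with the smallest adjusted p of all members (limma, 0.00236), called in 15 of 16 alternatives. In SCR cells NDUFB10 overlapped between the groups, with a change of −0.19 (95% interval −0.88 to 0.51). That change was 0.07 without SCR DMSO replicate 2.

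NDUFA11, another membrane arm subunit, fell from 102, 122 and 130 CPM to 73.3, 92.4 and 83.2 CPM, a change of −0.50 (limma adjusted p = 0.0100). NDUFV3, an accessory subunit of the NADH-binding module, rose from 17.4, 16.1 and 15.3 CPM to 25.8, 21.6 and 22.5 CPM, a change of 0.49 (limma adjusted p = 0.0152). NDUFB3 rose by 0.37 and NDUFA8 by 0.34 (limma adjusted p = 0.0314 and 0.0354). For all 4 genes the siB AAI and siB DMSO libraries did not overlap, and NDUFB3 and NDUFA8 were called in 10 and 8 of the 16 alternatives, NDUFA11 and NDUFV3 in 14. The NDUFV3 and NDUFA11 calls were both lost without siB DMSO replicate 3.

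Complex II has only 4 subunits, all nuclear, and 1 of its genes was called higher and 1 lower. This is 50% of them, near the 52.2% of all genes called. SDHB had 60.6, 67.8 and 69.2 CPM in siB DMSO and 78.4, 95.2 and 96.7 CPM in siB AAI, a rise of 0.44 ± 0.12 (limma adjusted p = 0.0127). SDHD, a membrane anchor, had 62.9, 71.2 and 68.0 CPM in siB DMSO and 54.3, 53.4 and 57.1 CPM in siB AAI, a fall of 0.29 on the log2 scale (limma adjusted p = 0.0467). In neither gene did the groups overlap. SDHA and SDHC, the flavoprotein and the other anchor, changed by −0.03 and 0.04, with 95% intervals of −0.31 to 0.25 and −0.22 to 0.30. The SDHD call held in 8 of 16 alternatives and the SDHB call in 13, and the latter was lost under median-ratio scaling, with all 4 groups in the fit and without siB AAI replicate 3.

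In complex III, UQCRB, which helps to form the ubiquinone site, rose from 85.3, 92.2 and 83.2 CPM to 122, 114 and 106 CPM. All siB AAI libraries were higher, by 0.39 ± 0.11 (limma adjusted p = 0.0116). This call held in 13 of 16 alternatives and was lost under median-ratio scaling, with all 4 groups in the fit and without siB DMSO replicate 3. CYC1 had 145, 174 and 177 CPM in siB DMSO and 131, 138 and 135 CPM in siB AAI. The groups did not overlap, but the fall of 0.29 on the log2 scale was the call closest to the threshold (limma adjusted p = 0.0470) and held in only 4 of 16 alternatives. None of the 11 complex IV genes was called, with changes from COX5A at −0.21 to COX7B at 0.25, and the interval of each lay within 1.5-fold.

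In ATP synthase, ATP5D, the delta subunit of the central stalk, was the only one of 15 subunit genes called (6.67% against 52.2% of all genes). It had 86.7, 106 and 105 CPM in siB DMSO and 69.4, 78.7 and 72.0 CPM in siB AAI, a fall of 0.42 on the log2 scale (limma adjusted p = 0.0135). The groups did not overlap, and the call held in 13 of 16 alternatives, not with all 4 groups in the fit nor without siB DMSO replicate 2 or 3. The alpha and beta subunits of the catalytic head, ATP5A1 and ATP5B, changed by 0.09 and 0.15 and were not called. ATP5SL, which despite its name encodes the complex I assembly factor now called DMAC2, fell from 38.0, 44.96 and 51.9 CPM to 24.4, 33.8 and 27.9 CPM, by 0.63 on the log2 scale (limma adjusted p = 0.00926). Its call held in all 16 alternatives. ATP5J2-PTCD1 rose again, from 10.4, 14.3 and 15.3 CPM to 24.4, 23.9 and 17.6 CPM, a change of 0.68 (limma adjusted p = 0.0139), while ATP5J2 changed by 0.03.

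**Figure D3:**
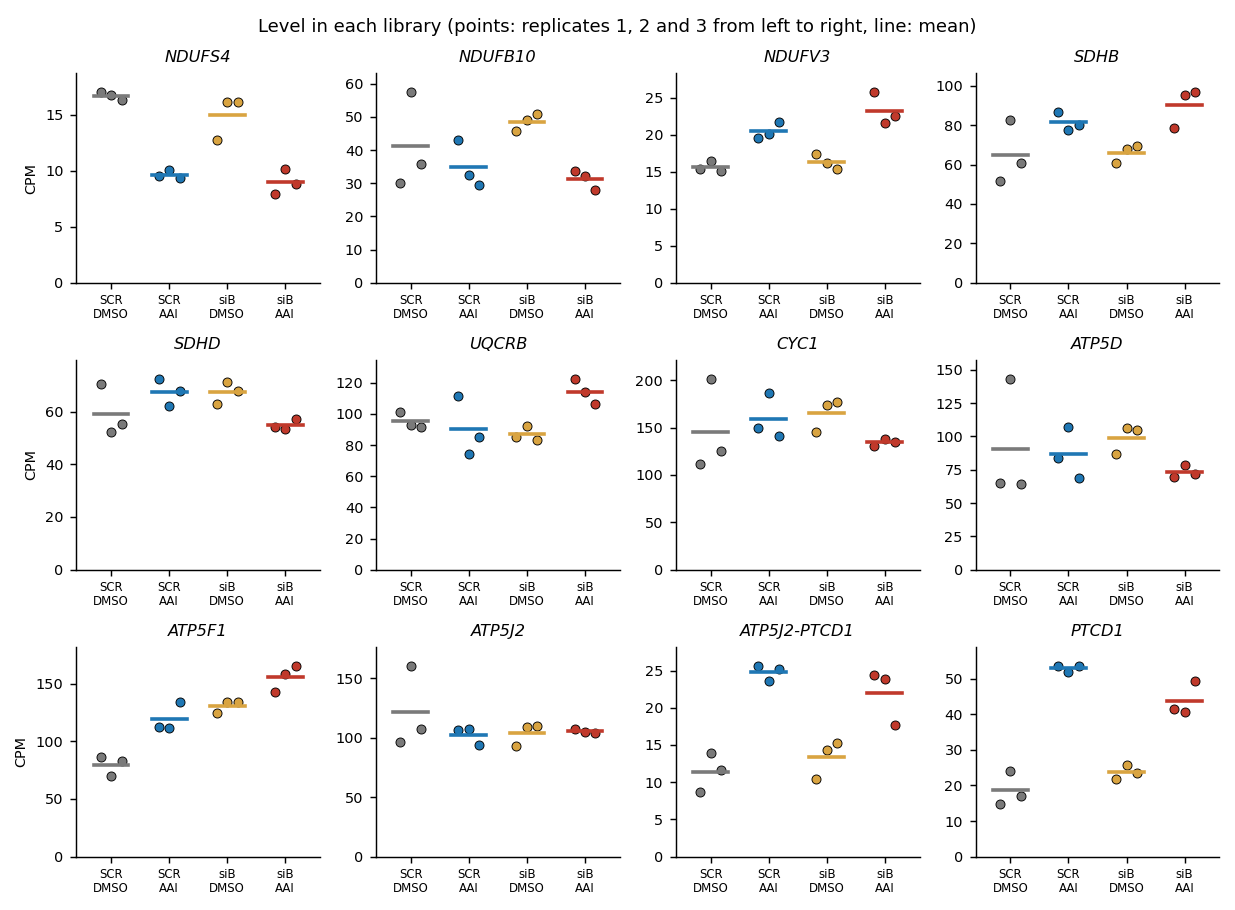
CPM of 11 members and of PTCD1 in each of the 12 libraries, on linear axes that start at 0, with a line at each group mean. NDUFS4 is lower in both AAI groups, ATP5J2-PTCD1 and PTCD1 are higher in both, and ATP5J2 overlaps in all groups.

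The members' changes with AAI in SCR cells and in siB cells, which come from separate libraries, had a Spearman correlation of 0.52 and a Pearson correlation of 0.60 over 77 genes, and 48 of the 77 had the same sign. Without SCR DMSO replicate 2 the correlations were 0.35 and 0.45, and 46 had the same sign. The difference between the 2 responses was tested as the interaction over all 12 libraries. No member passed it, against 1.61% of the 15325 genes tested. The lowest and highest interaction values of any member, as log2 differences of the AAI change in siB minus that in SCR cells, were −0.51 for COX5A and 0.62 for COX7C, both of complex IV (95% intervals −1.10 to 0.08 and 0.12 to 1.124, limma adjusted p = 0.466 and 0.245). For NDUFB10 the value was −0.44 (−1.14 to 0.26) and for NDUFS4 0.05 (−0.47 to 0.56), so calls made in siB cells alone were not shown to differ from SCR cells.

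The effect of lower POLR2A in AAI-treated cells was given by siB AAI against SCR AAI. No member was called, against 9.28% of the 14946 genes tested and 3.67% with at least a 2-fold change. The members' median change was 0.06, against 0.00 over all genes, and 2 members had an unadjusted p under 0.05. The 95% interval lay within 2-fold for all 77 members and within 1.5-fold for 57 of them, against 79.2% and 30.6% of all genes. The groups did not overlap for 8 members (10.4%), against 30.8% of all genes.

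ATP5F1 was the highest, with 143, 159 and 165 CPM in siB AAI against the SCR AAI values given above. Its groups did not overlap, and the change was 0.38 ± 0.15 (limma adjusted p = 0.136). ATP5SL was the lowest, at −0.47 ± 0.18 (limma adjusted p = 0.118), also without overlap. The replicate numbers paired these libraries, and with them as a block ATP5F1 (limma adjusted p = 0.0330) and ATP5SL (0.0133) were called, 1 in each direction, against 28.9% of all genes. Among complexes I to IV the extremes were NDUFB6 (0.30) and NDUFS3 (−0.29), SDHC (0.21) and SDHD (−0.29), UQCRB (0.35) and CYC1 (−0.23), and NDUFA4 (0.30) and COX5A (−0.24). None of these passed.

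The siRNA effect without AAI was given by siB DMSO against SCR DMSO. No member was called, and 0% of the 13606 genes tested were called by limma, although 644 genes and 2 members had an unadjusted p under 0.05. The lowest limma adjusted p of any gene was 0.257. The targeted gene POLR2A therefore missed too, although its groups did not overlap (means of 140 CPM in siB DMSO and 284 in SCR DMSO). A missing call in this comparison is thus not evidence of no change. With the spread estimated over all 4 groups 5 genes were called higher and 1 lower, none of them a member. The members' median change was 0.03, and the groups did not overlap for 8 members (10.4%), against 11.9% of all genes. ATP5F1 had the largest change, with 125, 134 and 134 CPM in siB DMSO against 86.4, 69.8 and 82.6 CPM in SCR DMSO. All siB DMSO libraries were higher, by 0.72 ± 0.15 (limma adjusted p = 0.935). The SCR DMSO libraries were thus the lowest of all 4 groups for ATP5F1 and the siB AAI libraries the highest.

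The other large differences in this comparison were those of NDUFA5 (0.49), COX7C (−0.39) and ATP5G2 (−0.39). NDUFA5 had 44.5, 10.9 and 24.0 CPM in SCR DMSO, and without replicate 2 its change was −0.01. COX7C had 123, 158 and 148 CPM in SCR DMSO and 99.7, 114 and 112 CPM in siB DMSO, with no overlap. None of these values passed, and the 95% interval lay within 2-fold for 72 of the 77 members.

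Subunit c, which forms the rotor ring of ATP synthase in the membrane, is encoded by 3 genes, ATP5G1, ATP5G2 and ATP5G3, whose products differ in the targeting peptide and are the same when mature. ATP5G2 had the highest level per kilobase of transcript in every group, and its share of the subunit c level per length was 67.2% ± 1.18 in SCR DMSO, 58.9% ± 2.88 in SCR AAI, 59.4% ± 2.15 in siB DMSO and 56.2% ± 1.38 in siB AAI (SD, n = 3). The lowest SCR DMSO share, 65.8%, was above the highest share of any other group, 62.1%. ATP5G1 made up 19.4% ± 2.02, 24.4% ± 3.70, 23.8% ± 1.34 and 27.3% ± 2.59 in the same order, and ATP5G3 the rest. These shares depend on the reference transcript chosen for each gene (632 bases for ATP5G2 and 2587 for ATP5G3). In CPM, ATP5G3 averaged above ATP5G2 in SCR AAI (148 against 128), siB DMSO (129 against 112) and siB AAI (135 against 113). In SCR DMSO it averaged below (122 against 149). The total level of the 3 genes was 351 ± 76.7, 343 ± 21.2, 298 ± 23.2 and 318 ± 45.5 CPM per kb. None of the 3 genes was called in any comparison.

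**Figure D4:**
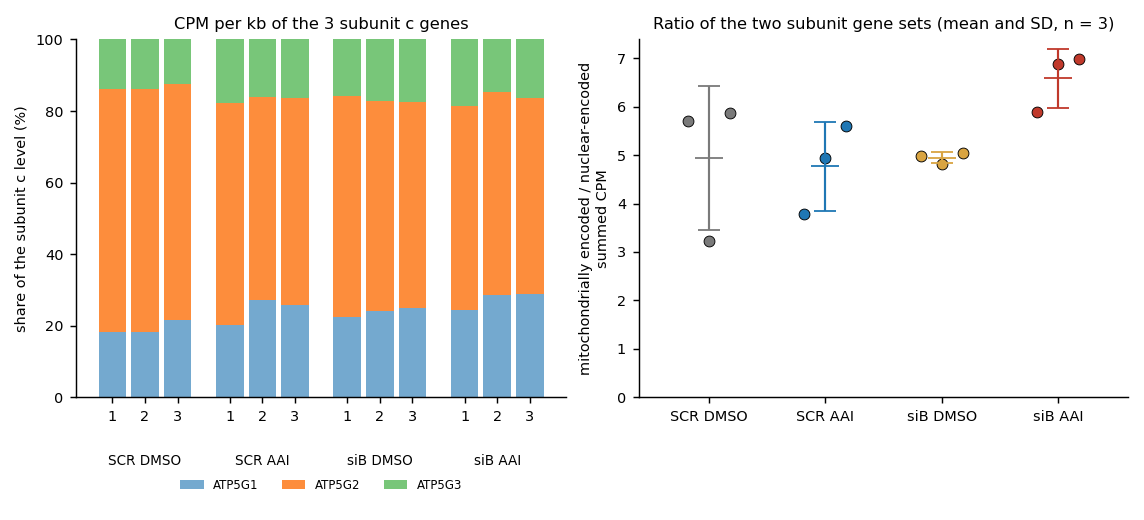
Left, the share of ATP5G1, ATP5G2 and ATP5G3 in the summed CPM per kb of the 3 genes, with 1 stacked bar per library (numbers are replicates). Right, the ratio of the summed CPM of mitochondrially encoded to nuclear-encoded subunit genes per library, with mean and SD of 3 libraries. ATP5G2 takes 65.8% or more in every SCR DMSO library and 62.1% or less in the others, and the ratio is highest in siB AAI, at 5.89 to 6.98.

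The offset of SCR DMSO replicate 2 from the other SCR DMSO libraries varied with transcript length among the members. Replicate 2 had a median of 0.44 log2 units above the mean of the other SCR DMSO libraries over the 77 members, and 68 members were above it. The deviation ran from −1.50 for NDUFA5, whose reference transcript has 5496 bases, to 1.29 for NDUFB7 (535 bases). Its correlation with transcript length was −0.40 by Spearman and −0.53 by Pearson over 77 members, which share the library. Without this replicate, 2 members (ATP5J2-PTCD1 and NDUFA8) were called higher and 1 (NDUFS4) lower in SCR cells, 3.90% of the 77 against 22.2% of all genes tested in that fit, with a median change of 0.11 against 0.06 over all genes.

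**Figure D5:**
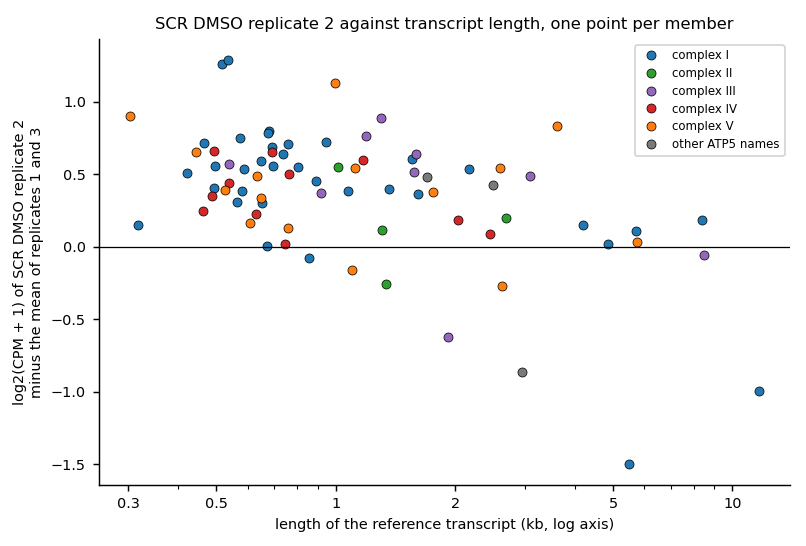
Deviation of SCR DMSO replicate 2 from the mean of replicates 1 and 3, in log2(CPM + 1), against the length of the reference transcript on a log axis, with 1 point per tested member coloured by complex. Members with short transcripts lie mostly above 0, and the lowest points, at −1.50 for NDUFA5 and −0.99 for NDUFS1, belong to long transcripts.

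Assembly factors insert cofactors and join subunits but are not part of the finished complexes. Of 52 such genes, 4 were called higher and 4 lower with AAI in SCR cells (15.4% against 12.3% of all genes, median change 0.27). Without SCR DMSO replicate 2 the counts were 10 and 5 (28.8% against 22.2%, median 0.18), and with the replicate numbers as a block, which paired these libraries, 8 and 5 (25.0% against 21.1%). In siB cells 10 were called higher and 12 lower (42.3% against 52.2%, median 0.0054). Under median-ratio scaling the counts were 1 and 5 in SCR cells and 7 and 15 in siB cells, against 13.3% and 53.9% of all genes. In SCR cells the largest changes were those of the complex I factors NDUFAF3 (−1.69, limma adjusted p = 0.0103) and NDUFAF5 (1.13), and of the complex IV factors SURF1 (−1.17) and COA3 (−1.08). NDUFAF3 was called in 14 of 16 alternatives and NDUFAF5, SURF1 and COA3 in 12, the losses all coming from leaving out 1 library. NDUFAF3 had 38.0, 73.9 and 49.7 CPM in SCR DMSO and 12.3, 18.8 and 15.6 CPM in SCR AAI, with no overlap. In siB cells COA3 (−1.51, limma adjusted p = 6.11e-05), NDUFAF3 (−1.14), the complex III factor UQCC2 (−1.07) and SURF1 (−1.01) changed most. COA3 had 40.7, 45.5 and 46.8 CPM in siB DMSO and 12.1, 16.8 and 16.4 CPM in siB AAI, also with no overlap.

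Between siB AAI and SCR AAI, 3 of the 52 assembly factors were called (5.77% against 9.28% of all genes), and 9 with the replicate block, 1 higher and 8 lower (17.3% against 28.9%). The complex II factor SDHAF2 (−0.81, limma adjusted p = 0.0215) and UQCC2 (−0.64, 0.0387) were lower in siB AAI, and NDUFAF3 was higher (0.71, 0.0490). The SDHAF2, UQCC2 and NDUFAF3 calls held in 12, 9 and 5 of 16 alternatives, and NDUFAF3 lost its call under median-ratio scaling among others. NDUFAF3 was 22.0, 30.4 and 25.6 CPM in siB AAI, above all SCR AAI libraries and below all DMSO libraries. No assembly factor passed the interaction test.

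Of 15 regulators of mitochondrial gene expression, none was called in SCR cells, and 2 had an unadjusted p under 0.05. Without SCR DMSO replicate 2, 2 were called higher and 1 lower (20.0% against 22.2% of all genes). With the replicate block 1 was called higher, against 21.1% of all genes. In siB cells 4 were called higher and 1 lower (33.3% against 52.2% of all genes). The counts were 2 and 2 under median-ratio scaling (against 53.9%) and 1 and 1 without siB DMSO replicate 3 (against 40.4%). PPARGC1A, a coactivator of mitochondrial biogenesis, fell from 23.2, 14.2 and 13.6 CPM to 4.86, 3.92 and 4.29 CPM, a change of −1.71 (limma adjusted p = 0.000183). TFAM, which packages and transcribes mitochondrial DNA, rose from 118, 85.7 and 84.5 CPM to 194, 151 and 156 CPM, a change of 0.80 (limma adjusted p = 0.00217). LRPPRC, which stabilizes mitochondrial mRNA, rose by 0.59, and GABPB2, a partner of GABPA, by 0.53 (limma adjusted p = 0.0190 and 0.0326). The PPARGC1A call held in all 16 alternatives, that of TFAM in 15, LRPPRC in 11 and GABPB2 in 9.

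Of 9 related isoforms and carriers, 6 were expressed enough to be tested in these comparisons. COX6B2, the testis isoform of a complex IV subunit, rose from a low level in SCR cells (0.878, 0.421 and 0.772 CPM to 4.31, 2.67 and 2.04 CPM, change 1.22, limma adjusted p = 0.0194) and in siB cells (change 1.68). COX6A2, the heart and muscle isoform of another, fell by 0.92 and 0.72 on the log2 scale. CYCS, the gene of cytochrome c, rose in siB cells from 114, 107 and 109 CPM to 168, 153 and 168 CPM, a change of 0.56 (limma adjusted p = 0.00116), and COX7A2L by 0.28 (0.0489). The CYCS call held in all 16 alternatives and the COX7A2L call in 5. That of COX6A2 in SCR cells held in 10 of the 15 in which it was tested. In SCR cells the CYCS value was 0.53 (limma adjusted p = 0.186).

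Ribosomal proteins give a scale for these counts. Of 78 mitochondrial ribosomal protein genes, 1 was called higher in SCR cells (1.28% against 12.3% of all genes, median change 0.25). Without SCR DMSO replicate 2 it was 6, against 22.2% of all genes. In siB cells 8 were called higher and 19 lower (34.6% against 52.2% of all genes, median −0.0033). Under median-ratio scaling these were 3 and 21, against 53.9% of all genes. In siB AAI against SCR AAI 5 were lower (6.41% against 9.28% of all genes, median −0.22), and 16 with the replicate block, against 28.9%. Of 81 cytosolic ribosomal protein genes tested, none was called in SCR cells, against 12.3% of all genes, and 5 had an unadjusted p under 0.05. In siB cells 15 were higher and 3 lower (22.2% against 52.2% of all genes, median 0.14). The counts were 4 and 5 under median-ratio scaling (against 53.9%) and 5 and 2 without siB DMSO replicate 3 (against 40.4%).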

How the data were processed

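Libraries were prepared and sequenced by a service provider. On the BioJupies platform the authors aligned the paired-end reads to hg38 and obtained gene-level counts from a UCSC annotation. The aligner, strand setting and versions are not given in the sources used here. The deposited values are log10(CPM + 1) and were turned back into CPM, which sum to 1000000 per library. The low values were whole multiples of 1 read within 0.1 read in 100% of cases, which gave the depth of 15844015 to 42805294 reads. A limit of 3 reads was 0.0701 to 0.189 CPM, for counting error only.

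Members and lists were chosen with earlier results of these data known, and groups were taken from the sample titles. Tests used limma 3.58.1 (R 4.3.3) with a mean-variance trend on log2(CPM + 1), pairwise as in the study's methods, with a pseudocount of 1, the filter of 1 CPM in 3 libraries and Benjamini-Hochberg adjustment over all genes. The code was tested on simulated data. Replicates of a group differed by more than sampling noise. Members were described by name, level and change, and named genes were the highest and lowest of each complex per comparison, all called past 2-fold or in the interaction, complex II, subunit c, and up to 4 called genes of each other list. The remaining members called in siB cells were named after their values were seen, as were genes without overlap. Spans, exons and overlaps came from GENCODE 44 and promoters from RefSeq.

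Same-numbered libraries were taken as pairs where every pair's deviations from the group means correlated above 0.1 over 15325 genes. This held for SCR AAI with SCR DMSO (0.42, 0.47 and 0.34) and siB AAI with SCR AAI (0.61, 0.32 and 0.29). Alternatives were a replicate block, median-ratio scaling, CPM without the row AC010970.2 (1887 to 105566 CPM) or without mitochondrially encoded transcripts, a filter on a mean CPM of 5 and none at all, a pseudocount of 0.1, no trend, all 4 groups in the fit, voom on the recovered reads and leaving out each library.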

Additional observations from a re-analysis of the deposited data

How the results depend on the processing

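Median-ratio scaling lowered the median of all genes from 0.18 to −0.01 with AAI in SCR cells and from 0.10 to −0.01 in siB cells. Under it the members' medians were −0.23 and −0.084, the counts higher and lower were 0 and 1 in SCR cells, with 0 past 2-fold, and 2 and 12 in siB cells. Over all genes 13.3% were called in SCR cells and 53.9% in siB cells. The summed complexes then changed by −0.086 (II) and −0.19 (V) in SCR cells and by −0.16 (I), −0.076 (II), −0.15 (III), −0.029 (IV) and −0.024 (V) in siB cells, in log2 units. Sign changes under this scaling were CYC1 (−0.043), SDHA (−0.021) and SDHD (−0.0086) in SCR cells, ATP5G2 (−0.10), ATP5G3 (−0.051) and SDHC (−0.077) in siB cells, ATP5G1 (−0.0019) and SDHB (−0.042) in siB against SCR under DMSO, and ATP5G1 (0.056) in the interaction, all uncalled.

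With all 4 groups in the fit, 4 members were higher and 4 lower in SCR cells, against 26.7% of all genes, and 2 and 2 in siB cells. Where no share over all genes stands beside a count in this section, the count shows only how the calls moved with the fit. Such a count is not a result about the members. In siB cells 52.2% of all genes were called in the main fit. Without the trend, 1 was lower in SCR cells. With the replicate block, 1 member was higher and 1 lower in siB AAI against SCR AAI, and in siB cells, whose numbers did not pair the libraries (correlations 0.21, 0.03 and 0.19), the counts were 7 and 9. The block changed no other count of members by more than 1.5 times.

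Leaving out 1 library at a time gave 0 to 2 members higher, 0 to 1 lower and 0 to 1 past 2-fold in SCR cells. There 5 of 6 such fits gave 0 calls higher, and leaving out SCR DMSO replicate 2 gave 2, against 22.2% of all genes called. In siB cells it gave 2 to 8 higher and 3 to 10 lower. The counts there were 2 and 3 without siB DMSO replicate 3, against 40.4% of all genes. They were 3 and 4 without siB DMSO replicate 2, and 3 and 5 without siB AAI replicate 3. The next list covers only the genes named by rule in each comparison. Values whose sign depended on 1 library ranged, in SCR cells, from −0.0091 to 0.41 (CYC1), −0.022 to 0.34 (SDHA) and −0.51 to 0.043 (UQCR11). In siB cells they ranged from −0.049 to 0.12 (ATP5G2), −0.044 to 0.13 (ATP5G3), −0.15 to 0.061 (SDHA) and −0.058 to 0.10 (SDHC). In siB AAI against SCR AAI they were −0.10 to 0.25 (ATP5G1) and −0.087 to 0.28 (SDHA). In siB DMSO against SCR DMSO they were −0.12 to 0.19 (ATP5G1), −0.031 to 0.28 (ATP5G3), −0.012 to 0.95 (NDUFA5), −0.11 to 0.23 (SDHB) and −0.14 to 0.0084 (SDHC), and in the interaction −0.18 to 0.17 (ATP5G1) and −0.085 to 0.25 (SDHB). NDUFB10 and ATP5J2, which are not in that list, also changed sign in SCR cells without SCR DMSO replicate 2. They went from −0.19 to 0.07 and from −0.21 to 0.01. The cause of these changes was not tested.

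With 3 libraries per group and the SCR DMSO spread, changes under 1.5-fold in SCR cells were mostly not detectable, and larger ones could also be missed. NDUFS4, at −0.73 and without overlap, missed the threshold there. The 95% interval lay within 1.5-fold for only 7 of the 77 members in SCR cells. CPM do not show changes of total RNA per cell.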
